A study of Mus musculus with 10 samples.

Results

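DNA methylation was examined at 7 genes of the calcineurin and NFAT pathway in lung tissue of 10 mice. The genes were Ppp3ca, a catalytic subunit of the phosphatase calcineurin, Nfatc1, Nfatc2, Nfatc3 and Nfatc4, the transcription factors that calcineurin activates, Nfat5, their relative that responds to osmotic stress, and Rcan1, an inhibitor of calcineurin. For each mouse the files give how many CpG reads were methylated and how many were not, here termed calls, in windows of 1000 bp placed every 500 bp, so that neighbouring windows share calls. Of 446336 windows, 309 overlapped the RefSeq span of one of the 7 genes (GRCm38) extended by 5 kb on each side: 67 at Ppp3ca, 66 at Nfatc2, 54 at Nfatc1, 47 at Rcan1, 41 at Nfatc3, 19 at Nfatc4 and 15 at Nfat5. A methylation level is the percent of a window's calls that were methylated, and a difference is given in percentage points. The mice were female BALB/c, 8 weeks old. The saline group (n = 3) was the control. The OVA group (n = 3) received 50 µg ovalbumin with alum for sensitization and 25 µg ovalbumin through the nose as challenge. The DSE group (n = 4, named Herb in the labels) was exposed to ovalbumin in the same way and was given 200 mg/kg of an ethanol extract of Descurainia sophia seeds by mouth. The labels give 1 library per mouse, and no group holds purified cells.

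In T cells and many other cells, a rise of calcium in the cytoplasm loads calmodulin, which switches on calcineurin. Calcineurin removes phosphates from the NFATc proteins, which then enter the nucleus and, with partners such as AP-1, drive cytokine genes including those of allergic inflammation. Rcan1 binds and restrains calcineurin, and its internal promoter is itself a target of NFAT, which makes a feedback loop. Nfat5 lacks the calcineurin docking region and is regulated by tonicity.

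Stretches of DNA from the windows that the results turn on are shown here, as reference sequence of the RefSeq GRCm38 genome with each CpG dinucleotide, the site where methylation was read, in capitals. The Ppp3ca stretch (chr3:136743001-136743240, plus strand) lies in intron 1 and has few CpGs. The Nfatc2 (chr2:168602001-168602240, minus strand) and Nfatc4 (chr14:55824001-55824240, plus strand) stretches lie just before a start site and have more. The Nfat5 stretch (chr8:107329846-107330145, plus strand) holds all 4 CpGs of the 1 window whose calls ran in opposite directions in OVA and after DSE. The Rcan1 stretches lie in intron 1 (chr16:92464606-92464845, minus strand) and before the outer start site (chr16:92466501-92466740, minus strand).
Ppp3ca intron 1: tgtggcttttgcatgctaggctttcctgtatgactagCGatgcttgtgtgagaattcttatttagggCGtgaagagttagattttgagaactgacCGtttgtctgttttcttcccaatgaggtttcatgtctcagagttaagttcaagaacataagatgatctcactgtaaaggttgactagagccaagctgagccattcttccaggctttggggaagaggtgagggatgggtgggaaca
Nfatc2 upstream: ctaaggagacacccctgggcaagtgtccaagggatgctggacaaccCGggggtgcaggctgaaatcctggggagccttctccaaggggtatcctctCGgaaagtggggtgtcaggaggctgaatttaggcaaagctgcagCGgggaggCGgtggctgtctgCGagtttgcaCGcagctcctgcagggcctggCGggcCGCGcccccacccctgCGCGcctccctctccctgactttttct
Nfatc4 upstream: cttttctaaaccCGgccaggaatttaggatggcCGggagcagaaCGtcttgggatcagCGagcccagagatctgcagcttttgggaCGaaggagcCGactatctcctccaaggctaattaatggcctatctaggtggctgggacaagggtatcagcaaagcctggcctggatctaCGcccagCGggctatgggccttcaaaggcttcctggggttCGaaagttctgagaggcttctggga
Nfat5 intron 2: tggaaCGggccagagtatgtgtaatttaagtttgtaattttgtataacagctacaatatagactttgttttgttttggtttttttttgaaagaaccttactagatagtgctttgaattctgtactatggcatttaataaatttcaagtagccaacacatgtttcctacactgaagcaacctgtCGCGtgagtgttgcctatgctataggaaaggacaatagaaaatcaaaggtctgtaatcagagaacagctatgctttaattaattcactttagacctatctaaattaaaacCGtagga
Rcan1 intron 1: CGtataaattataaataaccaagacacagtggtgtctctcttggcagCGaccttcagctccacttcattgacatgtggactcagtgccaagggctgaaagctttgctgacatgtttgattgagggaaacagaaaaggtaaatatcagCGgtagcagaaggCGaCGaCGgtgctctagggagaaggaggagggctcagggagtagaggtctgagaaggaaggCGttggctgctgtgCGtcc
Rcan1 upstream: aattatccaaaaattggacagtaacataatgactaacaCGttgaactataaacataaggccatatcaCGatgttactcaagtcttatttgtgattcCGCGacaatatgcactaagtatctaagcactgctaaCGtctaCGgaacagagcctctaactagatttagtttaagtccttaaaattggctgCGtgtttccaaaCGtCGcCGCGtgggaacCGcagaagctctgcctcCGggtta

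Depth was high at these genes. The table held between 306656737 and 410836272 calls per mouse, counting a call in each window that holds it, and the 309 windows held between 235986 and 320924 of them. Calls per window and mouse ran from 10 to 7400 with a median of 653, and 298 windows had at least 20 calls in every mouse. The level of single windows carries a counting error: the widest 95% Wilson interval of any mouse spanned 3.67 points in the Rcan1 intron 1 window shown above and 29.5 points in the Nfat5 window. Such intervals cover counting error only. Replicate mice differed by more than counting, with mean squared differences 2.65 to 3.76 times what counting gives (expected 1), so no library was a copy of another.

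Level followed position. The 58 promoter windows (within 1 kb of a start site) had a median of 4.05% in saline lung, the 168 intron windows 64.8% and the 36 exon windows 80.8%. In all, 64 windows lay under 20% with a median of 41 CpGs, 163 lay between 20% and 80% with 13, and 82 lay above 80% with 13.5. The windows over the start sites of Ppp3ca, Nfatc1, Nfatc2, Nfatc3, Nfat5 and Rcan1, 10 sites in all, were at 8.91% or less in every mouse. None of these 10 windows was called, and none passed limma, in any comparison. A call needed a difference of at least 10 points, so at these levels a fall could not have been called.

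**Figure D1:**
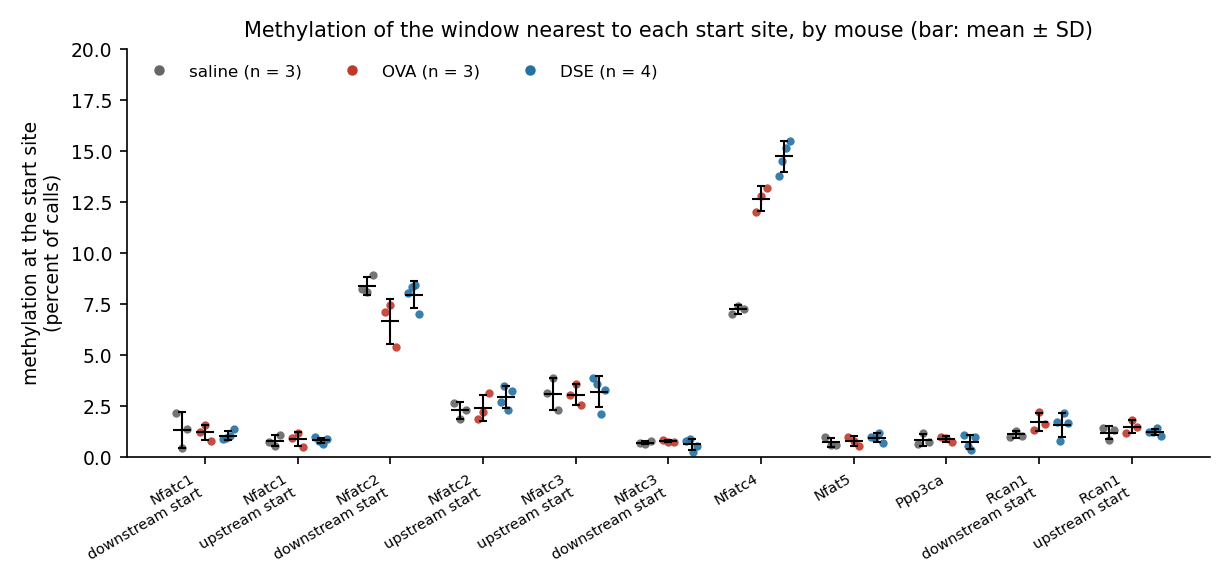
Methylation level (percent of calls, y axis) of the window nearest to each of 11 annotated start sites, with 1 point per mouse and the mean ± SD of each group. The Nfatc4 start site stands at 7.01 to 7.43% in saline mice and 12.02 to 15.5% in the other mice, while the other 10 sites show no separation of all saline mice from all others.

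The comparison of OVA with saline asks which sites changed with allergic inflammation. A window was called by a likelihood ratio test on the summed calls of each group if the p adjusted by Benjamini-Hochberg was under 0.01 and the levels were 10 points or more apart. Of 307 windows tested, 35 were called (11.4%), 18 of them hyper methylated and 17 hypo methylated in OVA, against 4.75% and 2.56% of all windows tested. They merged into 19 regions. The called windows lay mostly in introns: 30 of 168 intron windows, 3 of 58 promoter windows, 2 of 25 upstream windows, 0 of 36 exon windows and 0 of 22 downstream windows were called. By level, 33 of the 163 windows between 20% and 80% in saline were called, 2 of the 64 lower ones and 0 of the 82 higher ones. A window under 10% cannot fall by 10 points, so the rule itself limits calls at low levels. Shares by feature or level over all windows were not set beside these counts. Whether the pattern is particular to these genes was therefore not tested.

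The direction differed by gene. Nfatc1 had 10 hypo methylated and 0 hyper methylated windows, Rcan1 had 5 hyper methylated and 0 hypo methylated, and Ppp3ca (9 and 4) and Nfatc2 (4 and 2) had both, hyper methylated first. Nfat5 had 1 hypo methylated window, and Nfatc3 and Nfatc4 had none. The median difference over the 7 genes' windows was 0.179 points, beside 0.732 points over all windows tested.

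The likelihood ratio test leaves out the spread between mice. Tested over mice by limma on M-values, 26 windows passed at an adjusted p under 0.05 in OVA vs. saline (14 higher, 12 lower; 3.74% of all windows passed), 42 in DSE vs. saline (21 higher, 21 lower; 7.25%) and 46 when the 7 OVA-exposed mice of both groups were set against saline (21 higher, 25 lower; 8.97%). In that last comparison, the saline and exposed mice did not overlap in 61 of 298 windows, 31 higher and 30 lower, which is 20.5% against 14.2% of all windows. An unmoderated F test with overdispersion called 0 windows here and 0 in the whole table, with 67 windows at an unadjusted p under 0.05 in OVA vs. saline. The first of these counts rested on few mice: it was 0 without saline replicate 1 or 2 or OVA replicate 2 or 3 and 11 to 24 without any other single mouse, and the last was 25 without saline replicate 1, 14 without replicate 2 and 29 without replicate 3. The exact two-sided permutation test over mice cannot go below p = 0.1 with 3 against 3 mice, 0.05714 with 3 against 4 and 0.01667 with 3 against 7.

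DNA came from whole lung, where a change in the share of a cell type and a change of methylation within cells cannot be told apart. Promoters of marker genes were therefore read in the same mice. Of 11 leukocyte marker genes, 6 had promoter windows with enough calls, and their mean level was 61.8 to 64.4% in saline, 56.5 to 61.4% in OVA and 56.0 to 58.3% in DSE. Ptprc, the pan-leukocyte antigen CD45, stood at 60.5 to 67.5% in saline and 42.9 to 48.9% in exposed mice, and 4 of the 6 genes were lower on average in exposed mice. Of 10 lung epithelial and endothelial marker genes, 6 were measured, and their mean was 39.9 to 42.6% in saline, 42.2 to 42.5% in OVA and 39.3 to 45.6% in DSE. Among these 6, Tek, an endothelial receptor, had 22.4 to 29.1% in saline and 29.2 to 36.2% in exposed mice, the 1 gene of the list whose groups did not overlap, and the part of this difference in the results was not tested. The leukocyte list was thus lower in the same mice that differed at the NFAT and calcineurin genes, and its part in those differences was not tested.

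**Figure D2:**
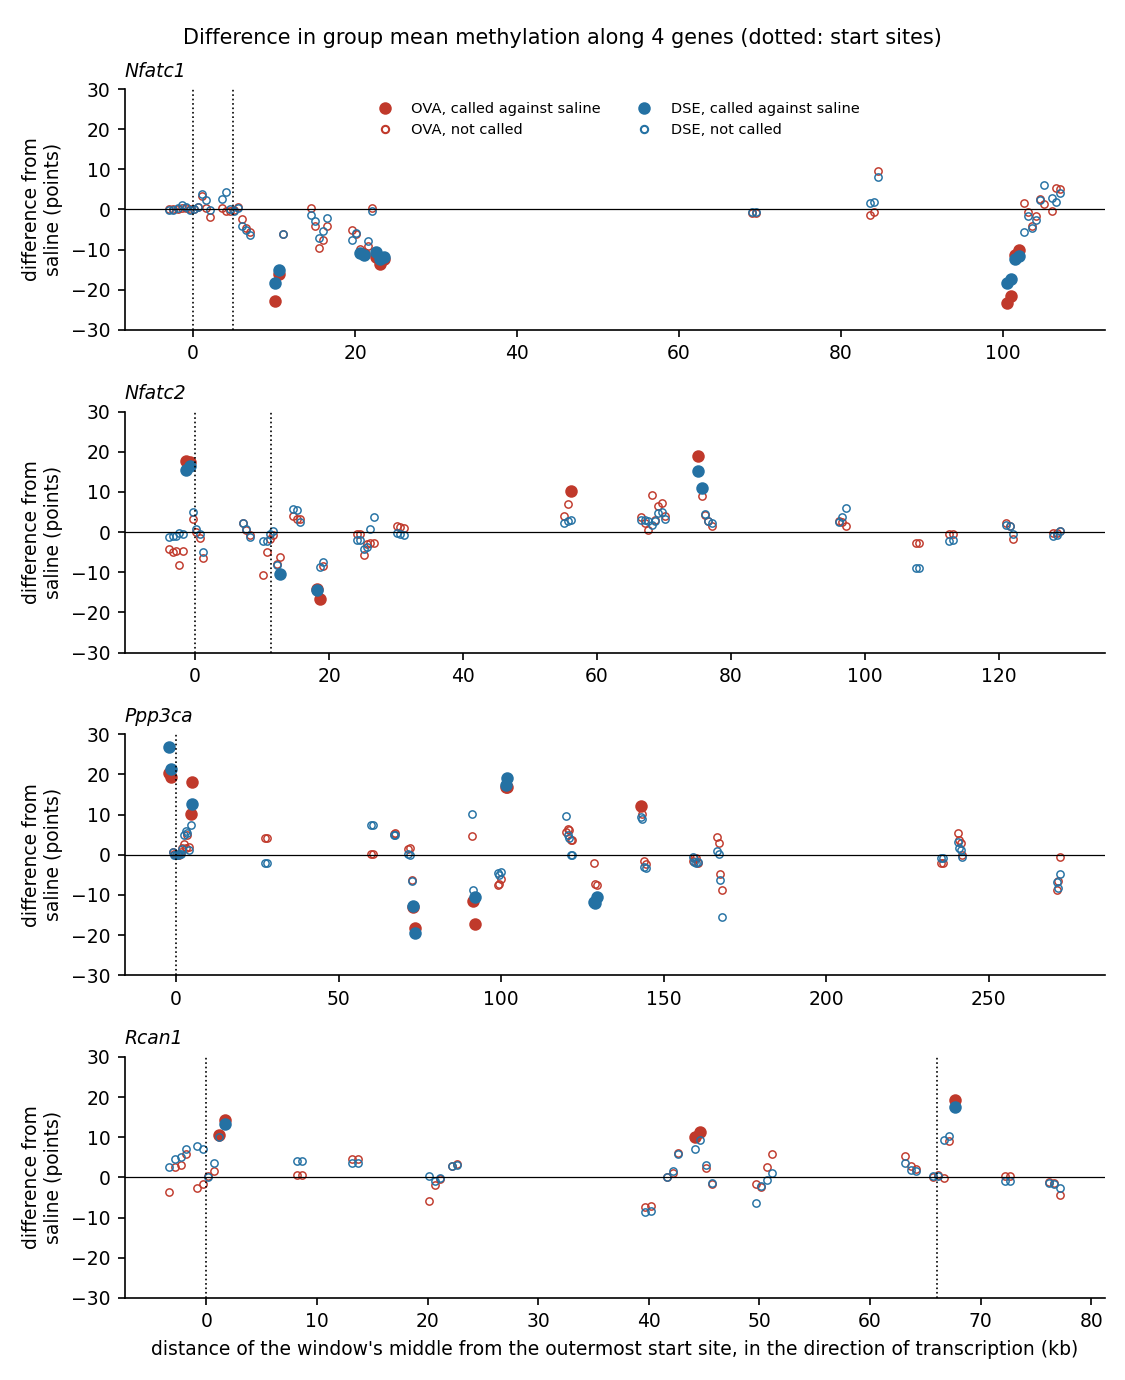
Difference of the OVA mean (red) and the DSE mean (blue) from the saline mean (percentage points, y axis) in each window, by distance from the outermost start site in kb (x axis), at Nfatc1, Nfatc2, Ppp3ca and Rcan1. Filled points are windows called against saline by the likelihood ratio test; called windows fall below 0 at Nfatc1, above 0 at Rcan1 and on both sides at Nfatc2 and Ppp3ca, with red and blue points close to each other.

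Ppp3ca (chromosome 3, 136669714 to 136937727, plus strand) had 13 called windows in 7 regions, most of them in its long first intron. In the intron 1 window whose sequence is shown above, 73434 bp past the start site, levels were 73.2, 76.3 and 75.7% in saline, 61.0, 51.8 and 57.7% in OVA and 57.3, 51.5, 53.8 and 59.5% in DSE. Every exposed mouse was thus below every saline mouse. Exposed minus saline was -19.0 points (75.1 ± 1.63%, n = 3, against 56.1 ± 3.74%, n = 7, mean ± SD; limma adjusted p = 0.00379; exact permutation p = 0.0167). A neighbouring part of the same intron, 91934 bp past the start site, fell from 72.0 ± 1.67% (SD, n = 3) in saline to 54.7 ± 4.40% (n = 3) in OVA (limma adjusted p = 0.0221) and stood at 61.4 ± 2.33% (n = 4) in DSE.

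Other Ppp3ca windows went the opposite way. Before the start site, at 1566 bp, levels were 24.6, 23.6 and 27.5% in saline, 37.6, 46.3 and 50% in OVA and 47.0, 49.5, 35.5 and 54.4% in DSE, again with no overlap between saline and exposed mice (difference 20.5 points; limma adjusted p = 0.00907). A window 4934 bp past the start site had 45.9 ± 2.39% in saline (SD, n = 3), 63.9 ± 5.66% in OVA (n = 3) and 58.6 ± 2.84% in DSE (n = 4), a difference of 15.01 points between exposed and saline mice (limma adjusted p = 0.0163). The largest called difference of DSE from saline at this gene, 23.6 points in pooled calls, lay 2066 bp before the start site, where saline mice had 39.3, 31.6 and 56.9% and exposed mice 57.6 to 73.8%. Far inside intron 1, at 101934 bp, levels rose again from 27.4 ± 4.84% (SD, n = 3) to 45.5 ± 6.71% (n = 7; limma adjusted p = 0.0180). The start site itself stayed between 0.368 and 1.18% in every mouse. The largest pooled difference between OVA and saline at Ppp3ca, 22.0 points, came from a window with 3 CpGs and 16 to 384 calls per mouse, where OVA mice had 12.5, 52.7 and 76.2%. That value leaves out OVA replicate 1, which had 16 calls. With it the pooled difference was 14.9 points and was not called, the means of the mice differed by 6.003 points, and the call was also lost without saline replicate 3 (19.7 points). Scaled to the median calls per window of each mouse, its depth was 5.56 times higher in DSE than in OVA mice.

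Nfatc1, the NFAT factor known for its role in heart valves, osteoclasts and activated lymphocytes (chromosome 18, 80606205 to 80713071, minus strand) had 10 windows called in OVA vs. saline, each of them lower in OVA. They formed 4 regions, in introns 1, 2 and 9. In the intron 9 window with the largest difference, 95672 bp past the nearest start site, levels were 69.5, 75.6 and 70.1% in saline, 56.8, 48.0 and 40.7% in OVA and 57.3, 51.9, 56.5 and 47.9% in DSE. The saline mice stood above all others, and the DSE mice lay within or just above the range of the OVA mice. OVA minus saline was -22.7 points in pooled calls (likelihood ratio adjusted p = 5.93e-61; limma adjusted p = 0.0252), and the mean of the exposed mice minus that of saline was -20.4 points (limma adjusted p = 0.00817; exact permutation p = 0.0167).

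The same order of groups held in the other Nfatc1 regions. In intron 1, 5172 bp past a start site, saline mice had 73.0, 61.1 and 66.6%, OVA mice 51.5, 46.8 and 34.1% and DSE mice 50.4, 48.0, 50.5 and 45.6% (exposed against saline -20.2 points, limma adjusted p = 0.0124). In intron 2, 18172 bp past a start site, the means were 71.4 ± 2.23% in saline (SD, n = 3), 57.7 ± 3.73% in OVA (n = 3) and 59.1 ± 3.31% in DSE (n = 4), with -12.9 points between exposed and saline mice (limma adjusted p = 0.00901). By limma, 8.97% of all windows passed in exposed against saline mice, in either direction. Of the gene's 54 windows, 15 were lower and 0 higher, though neighbouring windows share calls and need not be separate observations. The smaller of these differences included a highly methylated window 2172 bp past the inner start site, which went from 92.0 ± 0.977% (SD, n = 3) to 86.1 ± 1.91% (n = 7; limma adjusted p = 0.00998). The windows over both Nfatc1 start sites were at or below 2.19% in every mouse.

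**Figure D3:**
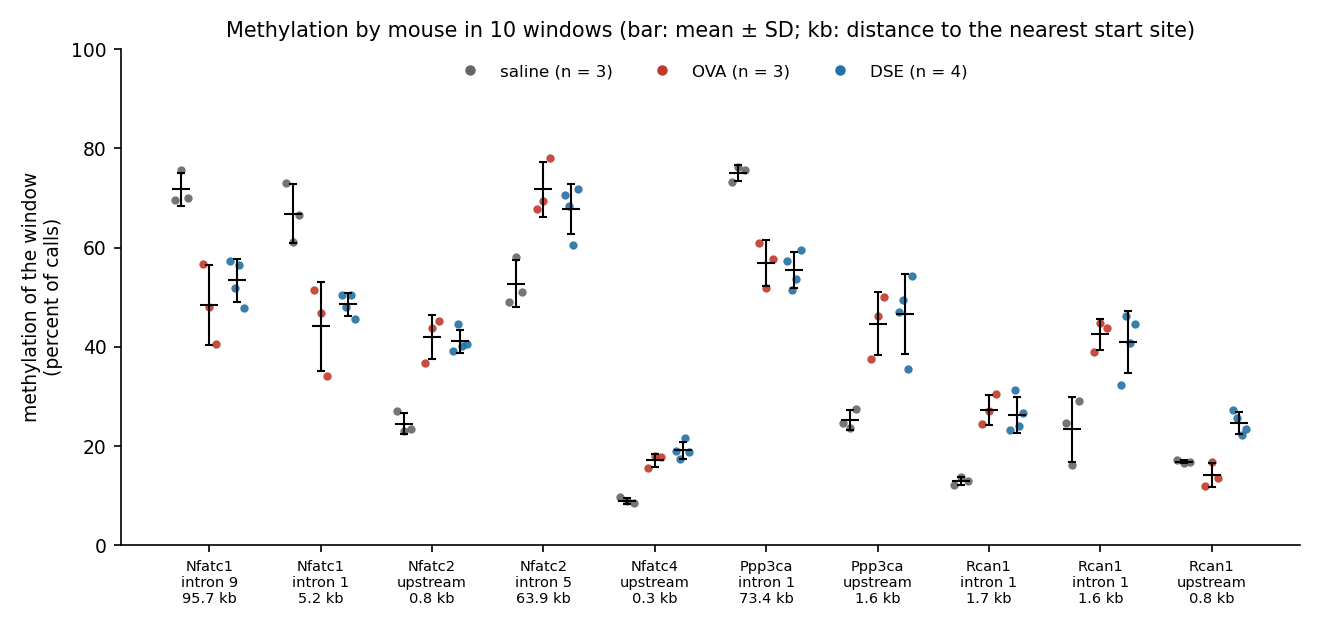
Methylation level (percent of calls, y axis) by mouse in 10 windows, named by gene, feature and distance to the nearest start site, with the mean ± SD of each group. In 9 windows the OVA and DSE mice lie together on one side of the saline mice. These 9 were picked by the lowest limma adjusted p for exposed against saline mice, or as called windows where those groups did not overlap. Their separation therefore follows from the choice, and only 61 of 298 windows (20.5%) showed no overlap. In the Rcan1 upstream window, at the right end and picked as called in DSE vs. OVA, the DSE mice lie at 22.3 to 27.3% and the saline and OVA mice at 12.02 to 17.3%.

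Nfatc2, a factor of T cells and mast cells (chromosome 2, 168476410 to 168601657, minus strand), gained methylation just before its outer start site. In the window 844 bp before that site, shown above, levels were 27.1, 23.1 and 23.5% in saline, 36.9, 43.8 and 45.3% in OVA and 39.2, 44.5, 40.2 and 40.6% in DSE. Every exposed mouse was above every saline mouse. The difference was 16.9 points (24.6 ± 2.18%, n = 3, against 41.5 ± 3.12%, n = 7, mean ± SD; limma adjusted p = 0.00396; exact permutation p = 0.0167). The next window outward, at 1344 bp, rose by 16.4 points (limma adjusted p = 0.00448), and the window 344 bp from the site went from 4.22 ± 0.173% in saline (SD, n = 3) to 8.58 ± 2.20% in exposed mice (n = 7; limma adjusted p = 0.0239). RefSeq also places the noncoding gene Gm52535 over these windows.

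Inside Nfatc2, intron 5 was higher and intron 1 lower in exposed mice. The intron 5 window, 63864 bp past the inner start site, went from 52.8 ± 4.72% in saline (SD, n = 3) to 71.7 ± 5.57% in OVA (n = 3) and 67.9 ± 5.03% in DSE (n = 4; exposed against saline, limma adjusted p = 0.0182). In an intron 1 window 7364 bp past the inner start site, saline mice had 66.3, 66.9 and 67.0%, OVA mice 46.0, 51.5 and 53.0% and DSE mice 61.8, 61.1, 64.4 and 45.1%. Of the DSE mice, 3 thus stood between the other groups and 1 just below the OVA mice, and this window did not pass limma in OVA vs. saline (adjusted p = 0.0702) or in DSE vs. OVA (adjusted p = 0.607). The window 864 bp past the inner start site had 34.8 ± 1.16% in saline (SD, n = 3) and 26.6 ± 1.28% in exposed mice (n = 7; limma adjusted p = 0.0137).

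Nfatc4, an NFAT factor of muscle, neurons and other nonlymphoid cells (chromosome 14, 55824795 to 55833943, plus strand), was the exception among the start sites. In the window over its start site, levels were 7.01, 7.43 and 7.29% in saline, 12.02, 12.8 and 13.2% in OVA and 13.8, 14.5, 15.2 and 15.5% in DSE. The 3 groups did not overlap with each other. Exposed mice were higher than saline by 6.61 points (limma adjusted p = 0.00376; exact permutation p = 0.0167), and DSE was higher than OVA by 2.07 points, which did not pass limma (adjusted p = 0.541; exact permutation p = 0.0571, the smallest that 3 against 4 mice allow).

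The rise reached upstream. In the window 295 bp before the Nfatc4 start site, whose sequence is shown above, saline mice had 9.68, 8.96 and 8.46%, OVA mice 15.7, 18.1 and 17.8% and DSE mice 19.0, 17.4, 21.5 and 18.8% (exposed against saline 9.31 points, limma adjusted p = 0.00349). At 795 bp the level went from 3.88 ± 0.406% in saline (SD, n = 3) to 6.93 ± 0.543% in exposed mice (n = 7; limma adjusted p = 0.00446). All 3 windows stayed below the 10-point limit in OVA vs. saline, so the likelihood ratio rule called none of them. The noncoding gene Gm41159 overlaps the window at 795 bp. Past the end of the gene, a window with 10 to 67 calls per mouse had 84.0, 71.4 and 83.3% in saline and between 27.9 and 51.6% in the exposed mice, but it was too shallow for limma.

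Nfatc3, which acts in thymocytes and many tissues (chromosome 8, 106058818 to 106130537, plus strand), had 1 called window, in the comparison of DSE with saline. It lies past the end of the gene, over Esrp2, a splicing regulator of epithelial cells. Its levels were 79.0, 75.7 and 77.2% in saline, 73.1, 61.2 and 74.5% in OVA and 63.1, 62.4, 66.4 and 60.7% in DSE. DSE minus saline was -14.2 points in pooled calls (limma adjusted p = 0.0269), while 3 of the 4 DSE mice were above the lowest OVA mouse and the DSE vs. OVA difference did not pass limma (adjusted p = 0.561). Near the inner start site of Nfatc3, at 1410 bp, saline mice had 24.6, 30.3 and 29.1%, OVA mice 25.7, 22.7 and 23.6% and DSE mice 19.7, 18.4, 16.1 and 21.1%. The DSE mice were the lowest and passed limma against saline (adjusted p = 0.0268) but not against OVA (adjusted p = 0.351), and the window's scaled depth was 2.94 times higher in DSE than in OVA mice.

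Nfat5 (chromosome 8, 107293435 to 107379517, plus strand) held the 1 window of the 309 that was called hypo methylated in OVA and then hyper methylated in DSE against OVA. It lies in intron 2, 36530 bp past the start site. Its levels were 52.2, 42.4 and 65.5% in saline, 32.1, 41.0 and 32.8% in OVA and 51.6, 54.8, 62.5 and 53.3% in DSE. All OVA mice were below all other mice. Pooled calls gave -20.9 points against saline (likelihood ratio adjusted p = 2.49e-04) and DSE minus OVA was 20.8 points (adjusted p = 9.11e-05), but limma over mice passed neither (adjusted p = 0.0927 and 0.165). The call against saline was lost without saline replicate 3 (-12.8 points).

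The window before it, which shares 500 bp, did not show this order. It had 42.9, 16.7 and 47.1% in saline, 32.1, 41.0 and 32.8% in OVA and 38.7, 20.3, 39.0 and 33.0% in DSE, so the groups overlapped throughout. In the 3 OVA mice, the called window held the same calls as the window before it and 0 more. In saline it held 11, 24 and 40 more calls, of which 11, 21 and 39 were methylated. In DSE it held 44, 51, 54 and 46 more, of which 37, 50, 53 and 43 were methylated. The groups thus differed by mostly methylated calls that were counted in saline and DSE mice and not in OVA mice. These are net numbers, since the window before it covers 2 CpGs that the called window does not. The 3 CpGs that only the called window covers are the last 3 in the Nfat5 sequence shown above. With the same calls in both windows, the OVA mice gave no sign of calls at these CpGs, whose methylation in OVA lung was therefore not measured. Scaled to the median calls per window of each mouse, the depth of the called window in OVA was 0.650 times that in saline, and in DSE 2.20 times that in OVA.

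**Figure D4:**
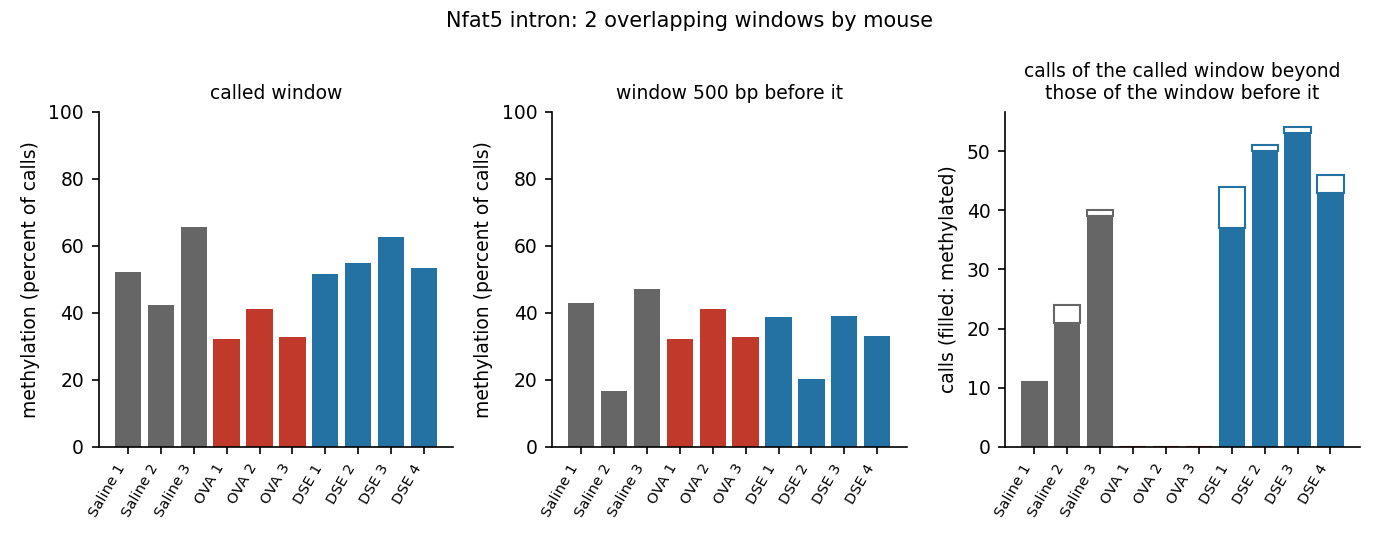
Nfat5 intron 2 by mouse: the level of the called window (left, percent of calls), the level of the window 500 bp before it (middle, percent of calls) and the number of calls the called window held beyond those of the window before it (right, filled part methylated). The left panel shows the OVA mice lowest, the middle panel shows no separation, and the right panel shows 0 further calls in each OVA mouse against 11 to 54 in the other mice.

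Upstream of Nfat5, exposed mice were lower. At 1470 bp before the start site the level was 80.8 ± 0.411% in saline (SD, n = 3), 75.0 ± 1.74% in OVA (n = 3) and 72.8 ± 1.57% in DSE (n = 4; exposed against saline, limma adjusted p = 0.0178), and at 970 bp it was 76.3 ± 0.504%, 70.5 ± 2.39% and 69.1 ± 1.32% (adjusted p = 0.0292 by limma). The saline and exposed mice did not overlap in either window. These windows share 500 bp and most of their methylated calls. From the farther to the nearer window, methylated calls changed by -141 to -91 per mouse. One step further, past the shared stretch, they changed by -1134 to -825. Both readings thus rest largely on the same calls and are not separate results.

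Rcan1 (chromosome 16, 92391951 to 92466169, minus strand), with an outer start site for its long form and an internal one for its short form, gained methylation past both. In the intron 1 window 1668 bp past the outer start site, shown above, levels were 12.2, 13.8 and 12.9% in saline, 24.4, 27.1 and 30.4% in OVA and 23.2, 31.3, 24.1 and 26.6% in DSE. Every exposed mouse was above every saline mouse. Exposed mice were higher by 13.8 points (13.0 ± 0.801%, n = 3, against 26.7 ± 3.12%, n = 7, mean ± SD; limma adjusted p = 0.00362; exact permutation p = 0.0167). Past the internal start site, at 1577 bp, levels were 24.7, 16.3 and 29.1% in saline, 39.0, 44.8 and 43.8% in OVA and 32.2, 46.2, 40.7 and 44.7% in DSE (18.3 points; limma adjusted p = 0.01199). Between them, a window in the long intron rose from 40.7 ± 1.31% (SD, n = 3) to 50.9 ± 2.65% (n = 7; limma adjusted p = 0.0179). The noncoding gene Gm46555 overlaps the window near the outer start site.

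Before its outer start site, Rcan1 behaved differently. In the window 332 bp before that site, levels were 7.28, 7.30 and 7.31% in saline, 4.22, 7.41 and 5.26% in OVA and 17.3, 14.4, 13.9 and 12.1% in DSE. Only the DSE mice were high: DSE was above OVA by 8.79 points (limma adjusted p = 0.0229) and OVA did not pass against saline (adjusted p = 0.286). In the window 832 bp before the site, levels were 17.3, 16.6 and 16.8% in saline, 12.02, 16.9 and 13.6% in OVA and 27.3, 25.6, 22.3 and 23.5% in DSE, with DSE above OVA by 10.5 points (limma adjusted p = 0.0390; exact permutation p = 0.0571).

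These windows share most of their methylated calls. The nearer window held only 5 to 17 more methylated calls than the farther one, at 0.410 to 1.29% of the further calls, so both readings rest on the same stretch, the Rcan1 upstream sequence shown above and the bases around it. The farther window had 49.8 to 61.7% as many calls as the nearer one in DSE mice, 29.6 to 39.2% in OVA mice and 39.0 to 42.1% in saline mice. Scaled to the median calls per window of each mouse, its depth was 1.87 times higher in DSE than in OVA, and the part of this difference in depth in the result was not tested. A window 577 bp past the internal start site also had its highest levels in DSE, with 18.3, 19.1 and 24.5% in saline, 22.0, 19.9 and 19.6% in OVA and 29.1, 30.4, 26.9 and 33.3% in DSE, which passed limma against saline (adjusted p = 0.0345) but not against OVA (adjusted p = 0.126).

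The internal Rcan1 promoter, the NFAT target of the feedback loop, was itself almost free of methylation: the window over it had 1.01 to 1.30% in saline, 1.31 to 2.21% in OVA and 0.773 to 2.15% in DSE. The 250 bases before this start site (chr16:92400079-92400328, minus strand, from the RefSeq GRCm38 genome) are shown because NFAT proteins bind GGAAA, which is in capitals on either strand.
Rcan1 internal promoter: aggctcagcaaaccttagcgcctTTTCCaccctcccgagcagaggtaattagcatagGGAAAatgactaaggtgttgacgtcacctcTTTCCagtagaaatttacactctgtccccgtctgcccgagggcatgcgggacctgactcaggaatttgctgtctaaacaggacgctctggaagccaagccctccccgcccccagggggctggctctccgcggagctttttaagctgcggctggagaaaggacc
The RefSeq promoter table holds 8 promoters of 5 of the genes, with no entry for Nfatc1 or Ppp3ca, each of 300 bases. GGAAA was found 3 times on both strands in the internal Rcan1 promoter and 0 times in the outer one. The outer Nfatc2 promoter and the Nfatc4 promoter also held 3 matches each, and that of Nfat5 held 2. At least 3 matches are held by 9.42% of 32851 promoters of the same length, and at least 1 by 61.3%. The longer TGGAAA, which contains GGAAA, was found 2 times in the internal Rcan1 promoter, and 3.03% of promoters held 2 or more. It was found 1 time each in the outer Nfatc2 promoter and the Nfatc4 promoter.

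Averaged over all of a gene's windows with at least 20 calls in every mouse, 2 of the 7 genes passed limma across 27944 genes in exposed against saline mice. Nfatc1 had 49.4, 48.2 and 47.4% in saline, 45.9, 44.7 and 42.7% in OVA and 45.6, 44.8, 44.9 and 44.3% in DSE. It was lower in all exposed mice (-3.62 ± 0.765 points, SE; limma adjusted p = 0.00672). Rcan1 had 53.5, 52.3 and 53.3% in saline, 54.5, 55.9 and 54.8% in OVA and 55.1, 56.5, 55.1 and 56.3% in DSE. It was higher in all exposed mice (2.39 ± 0.650 points, SE; limma adjusted p = 0.0201), a call lost without saline replicate 2 (adjusted p = 0.104). Of all genes, 20.6% were called higher and 5.54% lower.

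In OVA vs. saline, Nfatc1 alone passed (-3.89 ± 0.926 points, SE; limma adjusted p = 0.0203), beside 11.7% of all genes higher and 3.83% lower. This call was lost without saline replicate 1 or 2 or OVA replicate 2 or 3 (limma adjusted p = 0.0542 to 0.0751). In DSE vs. saline, Nfatc1 was lower by limma (-3.42 points, adjusted p = 0.0196) and Rcan1 (2.67 points, adjusted p = 0.0250) and Nfatc4 (2.73 points, adjusted p = 0.0472) were higher, beside 17.2% of all genes higher and 5.12% lower. These calls were lost by leaving out 1 mouse: Nfatc1 without saline replicate 1 or 2 or DSE replicate 4, Rcan1 without saline replicate 2 or 3 or DSE replicate 2 or 4, and Nfatc4 without any single saline mouse, OVA replicate 3 or DSE replicate 1, 2 or 4 (limma adjusted p = 0.0514 to 0.151 over all of these). With all calls of a gene pooled, Nfatc1 (limma adjusted p = 0.219) and Nfatc4 (0.266) also lost their calls in DSE vs. saline, Nfatc1 lost its calls in OVA vs. saline (0.0542) and in exposed against saline mice (0.164), and without the extension of 5 kb Nfatc4 lost its call in DSE vs. saline (0.106). The means of Nfatc2, Nfatc3, Nfat5 and Ppp3ca did not pass in any comparison, but with pooled calls Nfatc2 passed in DSE vs. saline (3.92 points, limma adjusted p = 0.0260) and Ppp3ca in DSE vs. OVA (5.19 points, adjusted p = 0.00507). Pooling made many genes pass: 11390 of 27944 in DSE vs. saline, against 6251 without pooling, and 8266 in DSE vs. OVA, against 10. The median over the 7 genes was 0.587 points in exposed against saline mice, and 1.05 points over all genes.

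**Figure D5:**
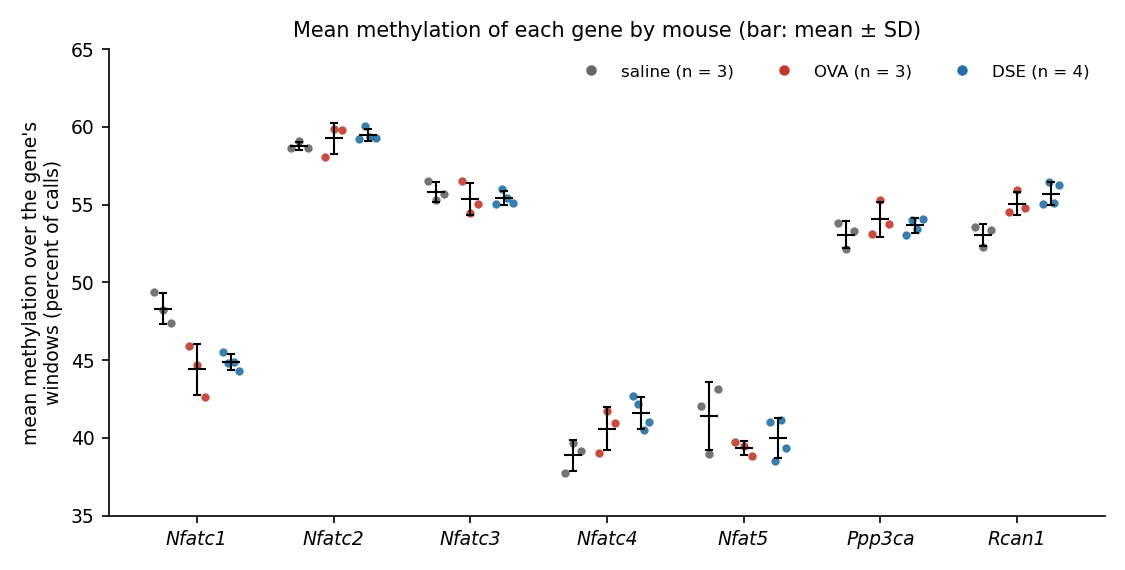
Mean methylation over each gene's windows (percent of calls, y axis, not starting at 0) by mouse, with the mean ± SD of each group. The saline mice lie above all others at Nfatc1 (47.4 to 49.4% against 42.7 to 45.9%) and below all others at Rcan1 (52.3 to 53.5% against 54.5 to 56.5%).

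The comparison of DSE with OVA asks whether treatment moved levels back. Of 308 windows tested, 2 were called, the Nfat5 and the farther Rcan1 upstream window, both hyper methylated in DSE, against 0.898% hyper and 0.725% hypo methylated of all windows. Both windows had unlike depth in the groups, with more than 1.5 times the scaled calls in DSE. Among windows within 1.5 times, 0 of 261 were called here and 1.03% of all windows, and among the rest 2 of 47 and 5.24%. By limma, 2 windows passed, both before the outer start site of Rcan1, against 0.418% of all windows, and 0 passed without OVA replicate 1 or 3 or DSE replicate 1, 2 or 3. The Rcan1 call of the likelihood ratio test was lost without OVA replicate 1 (9.45 points) or DSE replicate 1 (9.47 points). No mean over a gene's windows passed (0 of 7 by limma, 0 at an unadjusted p under 0.05; 0.0358% of all genes), and the differences ran from -0.398 points at Ppp3ca to 1.01 points at Nfatc4.

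Against saline, the DSE mice had 36 called windows of 308 (11.7%), 15 hyper and 21 hypo methylated, beside 4.95% and 3.07% of all windows. Nfatc1 had 0 hyper and 11 hypo methylated, Ppp3ca 7 and 6, Nfatc2 4 and 2, Rcan1 2 and 0, Nfatc4 2 and 1 and Nfatc3 0 and 1, while Nfat5 had none. Both comparisons use the same saline mice, so their calls are not independent. The 36 windows merged into 20 regions. Among the 309 windows, 16 neighbouring pairs held the same calls in every mouse. The 2 hyper methylated Nfatc4 windows are such a pair and are not separate measurements.

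Other genes of the pathway were described by their gene means in exposed against saline mice, by lists of 49 genes, of which 44 could be tested: 8 were higher and 3 lower by limma, with a median of 0.605 points. Over all genes, 20.6% were higher and 5.54% lower, with a median of 1.05 points. Of 12 genes that form, bind or inhibit calcineurin, 1 passed: Ppp3r1, the regulatory subunit of calcineurin, was higher by 3.91 points (limma adjusted p = 0.0186). Of 10 genes of calcium entry and release, 1 passed: Plcg1, the phospholipase that starts calcium release below antigen receptors, was higher by 5.70 points (limma adjusted p = 0.00260), while the channel and sensor genes Orai1 and Stim1 differed by -1.61 and -0.221 points and did not pass. Of 6 kinase and scaffold genes, 1 passed: Homer2, which competes with calcineurin for NFAT, was higher by 2.32 points (limma adjusted p = 0.03003).

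The partners and targets of NFAT had both directions. Of 11 tested, Il13, a cytokine of allergic inflammation, was higher by 3.38 points (limma adjusted p = 0.00364) and Maf, a transcription factor of type 2 T cells, by 2.26 points (adjusted p = 0.00740). Il4 fell by 4.204 points (limma adjusted p = 0.00315), Tnf fell by 6.20 points (adjusted p = 0.00291) and Csf2 fell by 4.18 points (adjusted p = 0.0297). Of 5 targets of Nfat5, 3 were higher: the osmolyte transporters Slc6a12 (5.24 points) and Slc6a6 (2.26 points) and aldose reductase, Akr1b3 (4.33 points). In DSE vs. OVA, 0 of the 44 genes passed limma and 3 had an unadjusted p under 0.05. Extended spans can take in neighbouring genes.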

How the data were processed

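Methyl-seq libraries of lung DNA (SureSelect capture, mouse build mm10) were analysed from 10 mice. Per the submitters' processing notes, reads were trimmed with cutadapt 1.10, aligned with Bismark 0.19.0 and summarised with methylKit 1.0.0; the study's methods name other versions of these tools. The authors deposited 1 table with counts of methylated and unmethylated calls per mouse in windows of 1000 bp at steps of 500 bp; every listed window had at least 10 calls in each mouse, so CpGs read more thinly are not represented. Capture favours promoters and CpG islands, and neighbouring windows share calls. Columns were matched to mice by their labels.

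The 7 genes and all other gene lists were chosen with earlier results of these data known. Windows were assigned by RefSeq spans on GRCm38, the build of the files, extended by 5 kb. A window was tested with at least 20 calls in 2 mice of each group. The likelihood ratio test of a logistic model, without overdispersion, followed the study's thresholds (adjusted p under 0.01, difference of at least 10 points). limma 3.58.1 (R 4.3.3) tested M-values (pseudocount 1) of windows and mean percentages of genes with at least 5 windows having at least 20 calls in every mouse, at an adjusted p under 0.05. Adjusted p-values are by Benjamini-Hochberg, over all windows tested for windows and over all genes tested for gene means. Exact permutation tests over mice were two-sided, and their p-values were not adjusted. Python 3.11.15, NumPy 2.4.6, SciPy 1.17.1 and statsmodels 0.14.6 were used. The window tests were also run on simulated counts with known changes in the OVA group, and the outcome is not given here. Windows named in the text were those nearest to start sites, those with the largest called difference per gene and comparison, those called in opposite directions and those that passed limma. The Ppp3ca, Nfatc2, Nfatc4 and Rcan1 intron 1 sequences come from each gene's window with the lowest limma adjusted p in exposed against saline mice. In windows chosen by their values, the lack of overlap and the exact permutation p come from those same values and are no separate evidence. The lower intron 1 window of Nfatc2 and the window before the called Nfat5 window were chosen after their values were seen. Alternatives were other minimums of calls, an F test with overdispersion, limma, a 20-point difference, unweighted means, pooled calls, windows that do not overlap, spans without extension, a replicate block and leaving out each mouse. An alternative limited to windows of like depth was chosen after seeing the data. Replicate numbers come from the titles and name separate mice.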

Additional observations from a re-analysis of the deposited data

Results flagged for a closer look

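One value stood apart among 30 group values tested for an outlying mouse in groups of 4. The mean of Nfatc2 in the DSE mice was 59.21, 60.05, 59.33 and 59.27%, and the gap of replicate 2 to its nearest neighbour took 0.854 of the whole range. The range is under 1 point, and chance alone picks out about 1 in 20 such groups.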

How the results depend on the processing

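Member windows called by the likelihood ratio test numbered 35 for OVA against saline, 2 for DSE against OVA and 36 for DSE against saline. The counts became 0, 0 and 0 under the F test with overdispersion (67, 15 and 87 at an unadjusted p under 0.05), 6, 1 and 3 with a difference of at least 20 points, and 18, 0 and 18 over windows that do not overlap, which are fewer by construction. Under limma with the 10-point limit, OVA vs. saline gave 21 and DSE vs. OVA 1. Spans without extension left 1 in DSE vs. OVA, and windows of like depth left 0. Leaving out 1 mouse gave 29 to 40, 2 to 5 and 34 to 44; the middle count was 5 without OVA replicate 2 and 4 without OVA replicate 1 or 3 or DSE replicate 3 or 4.

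The limma counts rest on few mice. From 26, 2, 42 and 46 windows (OVA against saline, DSE against OVA, DSE against saline, exposed against saline), leaving out 1 mouse gave 0 to 24, 0 to 2, 7 to 43 and 14 to 45. The first count was 0 without saline replicate 1 or 2 or OVA replicate 2 or 3, 11 without saline replicate 3 and 14, 16 and 17 without DSE replicate 2, 3 and 4. The second was 1 without any single saline mouse or DSE replicate 4 and 0 without OVA replicate 1 or 3 or DSE replicate 1, 2 or 3. The DSE against saline count was 7 to 17 without any single saline mouse and 13, 23 and 12 without DSE replicate 2, 3 and 4, and the exposed count was 14 to 29 without any single saline mouse. The cause was not tested.

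Same-numbered mice of different groups had correlations of -0.0273 to 0.0785. Mice of unlike numbers were not set beside them, so a pairing by replicate number was not tested. With the replicate block, where DSE replicate 4 is alone in its number, the likelihood ratio counts were 35, 3 and 36, the limma window counts 0, 0, 0 and 22, and the gene means called numbered 1, 0, 1 and 1.

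Gene means called numbered 1, 0, 3 and 2 in the same order. With all calls of a gene pooled the counts were 0, 1, 2 and 1, the 1 in DSE vs. OVA being Ppp3ca (5.19 points, limma adjusted p = 0.00507), where deep windows weigh more and 8266 of all genes passed instead of 10. In DSE vs. saline, pooling lost the calls of Nfatc1 (limma adjusted p = 0.219) and Nfatc4 (0.266) and added 1 for Nfatc2 (3.92 points, 0.0260), while 11390 of all genes passed instead of 6251. The block lost the calls of Nfatc4 (limma adjusted p = 0.0866) and Rcan1 (0.0939) in DSE vs. saline. Spans without extension gave 2 in OVA vs. saline, with Rcan1 added (limma adjusted p = 0.0488), and lost Nfatc4 in DSE vs. saline (0.106). Leaving out 1 mouse gave 0 to 1, 0 to 0, 0 to 3 and 1 to 3. The Nfatc1 call in exposed against saline mice was lost with pooled calls (limma adjusted p = 0.164), and the Rcan1 call without saline replicate 2 (limma adjusted p = 0.104) and with the block (0.0590). The Nfatc3 mean, which passed nowhere, changed sign without the extension (0.0194 points in OVA vs. saline, 0.0212 in DSE vs. saline and 0.0204 in exposed against saline mice) and with pooled calls (2.21 and 1.22 points in the last 2), and the Ppp3ca mean did so with pooled calls in OVA vs. saline (-2.75 points). In DSE vs. OVA, Ppp3ca and Nfatc4 (-1.48 points) changed sign with pooled calls, Nfat5 with a minimum of 50 calls (-0.626) and over windows that do not overlap (-0.815), Nfatc2 and Nfatc3 over those windows (-0.000737 and -0.0944), Nfatc2 without the extension (-0.112), and Nfatc1, Nfatc2, Nfatc3 and Ppp3ca without 1 mouse (-0.406 to 0.214).

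Of 190 values of 13 single-window results under alternatives, 0 changed sign and 31 lost the call, 4 of them without 1 mouse. The Nfat5 call in OVA vs. saline was lost without saline replicate 3 (-12.8 points), as was the Ppp3ca call of 22.0 points (19.7 points), and the Rcan1 upstream call in DSE vs. OVA without OVA replicate 1 (9.45 points) or DSE replicate 1 (9.47 points). With 3 or 4 mice a group, no exact test of OVA vs. saline or DSE vs. OVA can pass 0.05.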
